A study of Mus musculus with 6 samples.

Results

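The genes described here encode the proteins with which glutamate acts on a cell and is packed, cleared and held at synapses: AMPA, NMDA, kainate and delta receptor subunits, metabotropic receptors, the Dlg and Dlgap scaffold proteins, vesicular glutamate transporters and the Slc1 family of membrane transporters. They were chosen by gene symbol in the array's annotation (Gria, Grin, Grik, Grid, Grm, Dlg, Dlgap, Slc17a6 to Slc17a8 and Slc1a1 to Slc1a6), which gave 43 of the 22626 probe sets and 29 of the 12393 named genes. No probe set of the other 16 symbols in the rule, among them Grin1 and Slc17a7, is named in the annotation used here, and they were not analysed here. A probe set is the group of short oligonucleotides that gives 1 signal on an Affymetrix array, for 1 transcript or for several.

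Light reaches the suprachiasmatic nucleus (SCN), the circadian clock of the hypothalamus, through retinal axons that release glutamate. AMPA receptors carry fast excitation, NMDA receptors admit calcium when glutamate binds to a depolarised cell, and kainate and metabotropic receptors adjust release and excitability. Membrane transporters of neurons and astrocytes end the signal by taking glutamate up, and Dlg proteins, of which Dlg4 (PSD-95) is the best known, hold receptors at the postsynaptic density.

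Tissue came from adult male C57BL/6 mice, 2 to 4 months old, kept in 14 hours of light and 10 hours of dark. The light pulse group had 2400 lux for 30 minutes from 1 hour after lights off, and the sham light pulse group (sham below) stayed dark over the same time. The mice were killed at the end of the pulse, and SCN tissue was later lifted by laser capture from 12 μm sections of the frozen brains. The RNA of 3 mice (6 sections each) was pooled for each of 3 arrays per group. A pool holds all cell types of the captured tissue, so that in these samples fewer cells of a type and less RNA per cell cannot be told apart. Whether 1 mouse gave tissue to more than 1 pool is not stated, and the spread behind each p-value is that between pools, which may be technical in part.

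Signals are in arbitrary units on a linear scale, and those of different probe sets cannot be ranked as levels, because probe sets bind with different strength. A probe set was tested if its rank 3 signal over the 6 arrays (the third highest) was at least 118.2, and of the kept probe sets of a gene the one of highest mean log2 signal stands for the gene. Fold changes are differences of mean log2 signals, light pulse against sham, from limma, with their standard errors (SE). The known light-induced genes separated the groups: Fos, an immediate-early transcription factor, had signals of 668, 298 and 370.0 in sham pools and 14254, 10399.9 and 14457 in light pulse pools. Of the 8 SCN markers all were kept, among them Vip and Gad1. The lowest median correlations to the other arrays were 0.898 for light pulse replicate 3 and, close to it, 0.905 for sham replicate 2, with the rest at 0.917 to 0.922. Light pulse replicate 3 stood apart in its signal of 110323 for Ttr, a choroid plexus marker, where the other arrays had at most 296. The 5 other choroid plexus markers measured were left out by the filter. On this array 4 of them had their highest signal (Folr1 147.3, Sostdc1 125.7, Kl 72.7 and Aqp1 40.3, against at most 89.6, 63.3, 16.4 and 24.8 elsewhere), and Otx2 had 3.7. The part of this tissue in the results below was not tested, and values without the array are given for all 12 genes tested.

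Transcripts of 12 of the 29 genes were kept for the test, through 16 probe sets, and none was called as different between the groups. The kept genes were the AMPA receptor subunits Gria1 and Gria2, the NMDA receptor subunit Grin2c, the kainate receptor subunit Grik1, the scaffolds Dlg1, Dlg3, Dlg4, Dlg5 and Dlgap4, the glutamate transporters Slc1a1 and Slc1a3, and the neutral amino acid transporter Slc1a4. At an adjusted p under 0.05, limma called 0 of the 16 probe sets, where it called 0.0677% of all kept probe sets as higher and 0% as lower. Cyber-T, the Bayesian test named in the study's methods and written anew here, also called 0 of the 16. At an unadjusted p under 0.05, limma gave 2 of the 16, both lower in light pulse pools (Slc1a1 and Grik1), where it gave 2.21% of all probe sets as lower and 2.11% as higher. Of the 16 probe sets 12 were at or above 118.2 on all 6 arrays, and a probe set could pass through the arrays of 1 group alone. Adjusted p ran from 0.960 to 0.989. The 12 genes had a median log2 fold change of -0.01, with 6 above 0 and 6 below, against 0.00 over the 6739 genes with a kept probe set.

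**Figure D1:**
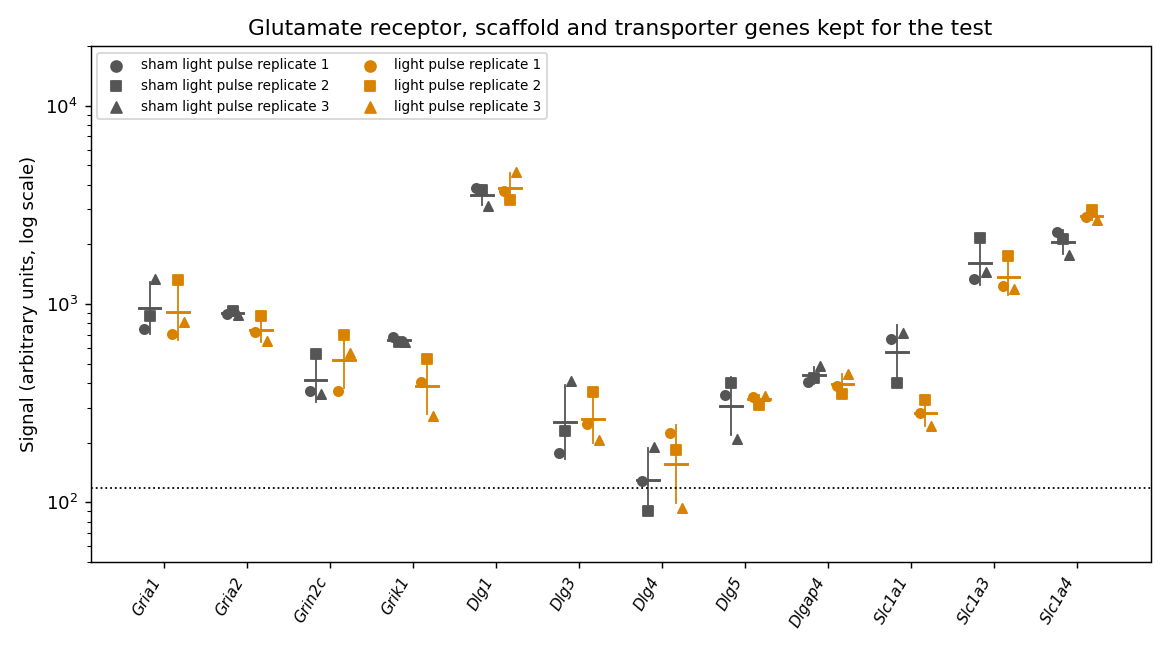
Signals (arbitrary units, log axis) of the 12 kept genes, with 1 point per array (3 per group); the mean (horizontal bar) and SD (vertical bar) were taken over log2 signals, and a dotted line marks 118.2, the lowest rank 3 signal that passed. The light pulse points of Gria2, Grik1 and Slc1a1 lie below all sham points and those of Slc1a4 above, while the groups of the other 8 genes overlap.

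In 4 of the 12 genes the arrays of the groups did not overlap. Gria2, Grik1 and Slc1a1 had each light pulse array below the lowest sham array, and Slc1a4 was higher. Over all genes with a kept probe set 10.1% did not overlap, 4.38% lower and 5.74% higher. Counted by probe set, 3 of the 16 were lower and 2 higher (Slc1a4 and a probe set of Dlg4), against 4.46% and 5.62% of all kept probe sets. That Dlg4 probe set passed the filter through its light pulse arrays, so that its place in this count is tied to the filter. With probe sets of shared targets left out, 1 of 10 genes did not overlap, and with all kept probe sets of a gene averaged, 2 of 12. The shares over all genes are those of the main fit. Groups separate more easily with 1 array left out, and separations given below for such a setting have no share beside them.

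Among the AMPA receptor subunits, Gria2, the subunit that makes the channel nearly impermeable to calcium, had signals of 886, 923 and 881 in sham pools and of 719, 868 and 653 in light pulse pools. The sham arrays lay close together and above each light pulse array. The log2 fold change was -0.27 (SE 0.28, limma adjusted p = 0.960), and its 95% confidence interval ran from -0.87 to 0.32. It was -0.18 without light pulse replicate 3. With quantile normalization or a common 75th percentile the groups overlapped. Another kept Gria2 probe set had signals from 173 to 437 in sham pools and from 140.8 to 257 in light pulse pools, overlapping between the groups, with a log2 fold change of -0.57 (SE 0.44).

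Gria1, which forms calcium-permeable channels where Gria2 is absent, had signals of 747, 867 and 1335 in sham pools and of 707.5, 1316 and 811 in light pulse pools. Both groups spanned nearly the same range, and the log2 fold change was -0.06 (SE 0.33), with an interval from -0.78 to 0.65. It was 0.02 without light pulse replicate 3. The other kept Gria1 probe set ran from 185 to 573 and from 74.1 to 395, with a log2 fold change of -0.72 (SE 0.60) and the lowest signal on light pulse replicate 3. Gria3 and Gria4, the other subunits of the family, had signals from 4.8 to 96.9 and were left out.

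The NMDA receptor subunit kept was Grin2c, one of the Grin2 subunits that bind glutamate. Its signals were 364, 559 and 350.3 in sham pools and 363, 694 and 568 in light pulse pools, with overlapping groups. The log2 fold change was 0.34 (SE 0.35, limma adjusted p = 0.960), and the interval from -0.41 to 1.08 reached past a doubling. It was 0.28 without light pulse replicate 3, and 0.60 with the groups apart without light pulse replicate 1. Grin2a and Grin2b, the Grin2 subunits common in forebrain, stayed near the floor of the arrays. Grin2a had signals of 3.8, 12.8 and 3.1 in sham pools and of 39.4, 44.7 and 52.0 in light pulse pools. Grin2b had 17.4, 26.6 and 37.6 against 54.5, 50 and 57.6 at one probe set, and 15.1, 96.9 and 47.4 against 72.5, 61.2 and 122.0 at the other. Grin2d ran from 15.0 to 126.5, and Grin3b, a subunit that binds glycine, from 4.3 to 126.5. For Grin2a, the first Grin2b probe set and Grin3b every light pulse signal exceeded every sham signal. Nearly all of these signals were under the lowest rank 3 signal kept, and no fold change is drawn from them. Of the 12286 probe sets left out, 7.58% had all light pulse arrays higher and 2.95% lower, and of the 27 member probe sets among them 3 and 0.

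Grik1, a kainate receptor subunit (GluK1), had signals of 679, 643 and 645 in sham pools and of 406, 525 and 272 in light pulse pools. The sham arrays agreed closely, and the light pulse arrays were lower and spread widely, with the lowest on replicate 3. The log2 fold change was -0.76 (SE 0.32), a signal 1.69-fold higher in sham pools, and it was not called (limma unadjusted p = 0.0339, adjusted p = 0.960). The interval ran from -1.45 to -0.07. Without light pulse replicate 3 the log2 fold change was -0.51 and the unadjusted p from limma was 0.152. Grik2, Grik3 and Grik5 were left out, with signals from 2.4 to 188.6, and so were the delta receptor gene Grid1, at 2.6 to 81.3, and the group III metabotropic receptor gene Grm8, at 8.9 to 82.1.

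**Figure D2:**
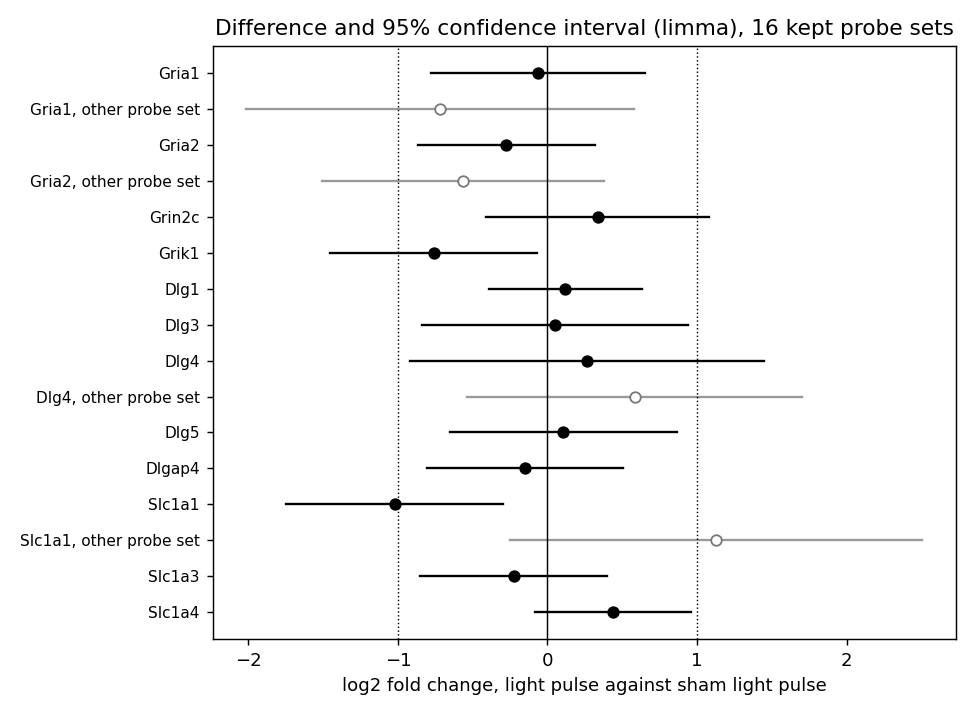
Log2 fold changes (light pulse against sham) of the 16 kept probe sets, as points, with 95% confidence intervals from limma, as lines; filled points are the probe set of highest mean signal of a gene, open points a second probe set, and dotted lines mark a doubling and a halving. The intervals of 8 of the 12 filled points lie inside the dotted lines, and those of Grik1 and the filled point of Slc1a1 lie below 0.

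For all 5 kept scaffold genes the groups overlapped at the probe set of highest signal. Dlg1 (SAP97), a scaffold that binds Gria1, had signals of 3823, 3772.5 and 3105.5 in sham pools and of 3711, 3329.7 and 4646 in light pulse pools. The log2 fold change was 0.12 (SE 0.24), with an interval from -0.39 to 0.63, and it was -0.01 without light pulse replicate 3. A Dlg1 probe set that the filter left out had means of 107.5 in sham pools and 60.5 in light pulse pools, with overlapping groups. Dlg5, a more distant relative known for roles in cell polarity, had 346, 399 and 209.5 against 338, 310.5 and 343, with a log2 fold change of 0.11 (SE 0.35), and 0.08 without light pulse replicate 3. Without sham replicate 3 it was -0.17, with the groups apart. Dlg3 (SAP102), which binds NMDA receptors, had a log2 fold change of 0.05 (SE 0.41) at signals from 177 to 410.0, and it was 0.23 without light pulse replicate 3 and ran from -0.22 to 0.39 as each array was left out.

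Dlg4 (PSD-95) lay near the lowest rank 3 signal kept. Its probe set of highest signal ran from 90.8 to 190.0 in sham pools and from 93.3 to 223 in light pulse pools, with a log2 fold change of 0.26 (SE 0.55), which was 0.63 without light pulse replicate 3. At a second probe set the signals were 133, 99.1 and 92.3 against 155, 159 and 167, all light pulse arrays above, with a log2 fold change of 0.58 (SE 0.52, limma adjusted p = 0.960). Its sham signals of 99.1 and 92.3 were under 118.2, and its light pulse arrays alone let it pass the filter. Another Dlg4 probe set was left out, with means of 40.8 in sham pools and 25.8 in light pulse pools and overlapping groups. Dlgap4, which links Dlg proteins to Shank proteins, had 405, 421.5 and 486 against 386, 353 and 446, overlapping, with a log2 fold change of -0.15 (SE 0.30). Without light pulse replicate 3 it was -0.24 and both remaining light pulse arrays lay below the sham arrays. Dlg2 (PSD-93) was left out at both probe sets, with signals from 5.5 to 147.6, and so was Dlgap5, a protein of the mitotic spindle that shares the Dlgap name, at 17.5 to 109.0.

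Of the vesicular transporters, which load glutamate into synaptic vesicles, Slc17a6 (VGLUT2) was measured. Its 2 probe sets ran from 3.4 to 74.3 and reached the lowest rank 3 signal kept on 0 of 6 arrays. SCN neurons are known to release GABA, and all 3 GABA neuron markers were kept: the vesicular GABA transporter Slc32a1 ran from 3686 to 7383.5, Gad1, which makes GABA, from 8440.0 to 11824, and Gad2, which also makes it, from 8.0 to 143.4. These are probe sets of different genes, and their signals do not rank the transcripts. The 4 measured markers of excitatory neurons outside the hypothalamus (Neurod2, Neurod6, Tbr1 and Slc30a3) were left out as well.

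**Figure D3:**
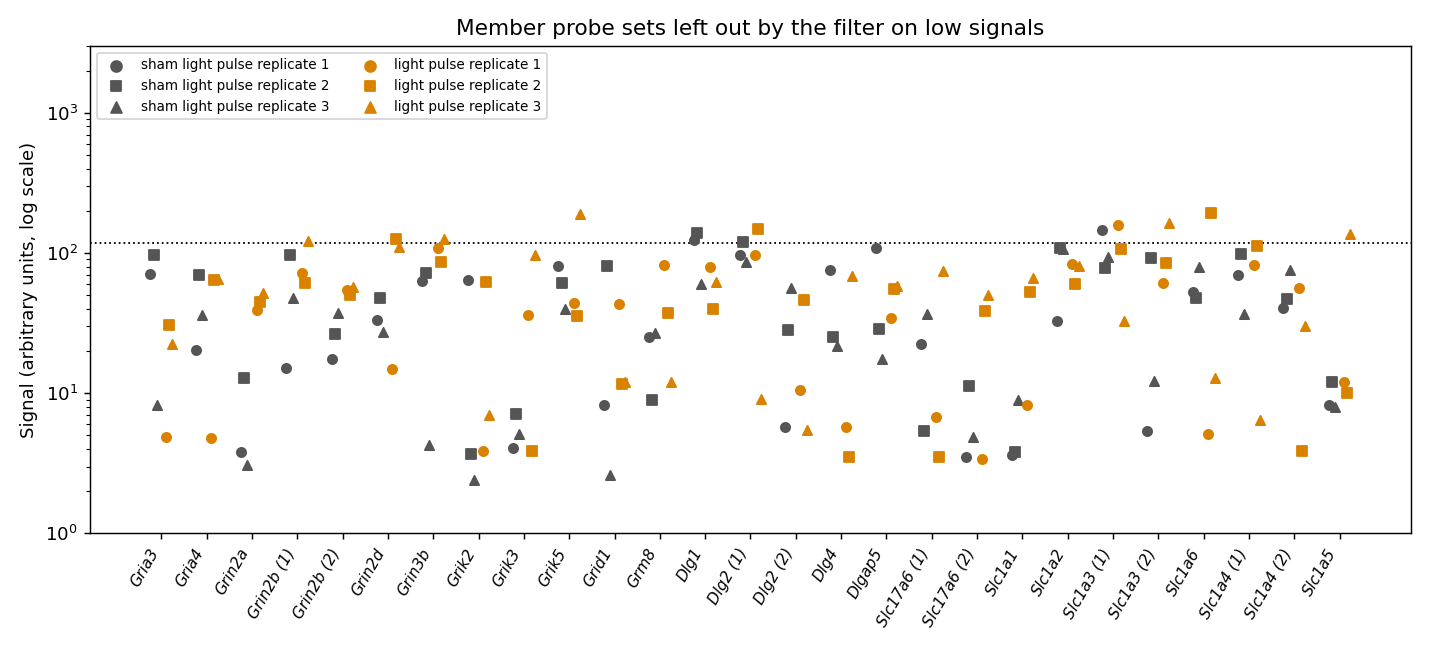
Signals (arbitrary units, log axis) of the 27 member probe sets that the filter on low signals left out, with 1 point per array (3 per group); a number after a gene marks several left-out probe sets, and a dotted line marks 118.2, the lowest rank 3 signal that passed. For 17 of the 27 no array reaches the line, for 7 it is 1 array and for 3 it is 2.

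Slc1a1 (EAAC1), the glutamate transporter of neurons, had the largest difference of the 12 kept genes. Its signals were 665, 397 and 711 in sham pools and 281, 329 and 243 in light pulse pools. Each light pulse array lay below each sham array. The log2 fold change was -1.02 (SE 0.34), a signal 2.03-fold higher in sham pools, and it was not called (limma unadjusted p = 0.00936, adjusted p = 0.960). The 95% confidence interval ran from -1.75 to -0.30. The log2 fold change was -0.91 without light pulse replicate 3 (unadjusted p = 0.0299 from limma).

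The other probe sets of Slc1a1 ran the opposite way. The second kept one, whose ID ends in _a_at, the mark of a probe set shared by several transcripts of a gene, had signals of 43.0, 154.7 and 71.6 in sham pools and of 161, 203 and 152 in light pulse pools. Its log2 fold change was 1.13 (SE 0.64, limma adjusted p = 0.960), with an interval from -0.25 to 2.50. It was under 118.2 on 2 of the 3 sham arrays and above it on all 3 light pulse arrays. The light pulse arrays sufficed for it to pass the filter, and the sham arrays would not have. With the 2 kept probe sets averaged, the log2 fold change of Slc1a1 was 0.05. The probe set that the filter left out had 3.6, 3.8 and 8.9 against 8.2, 53.1 and 65.9. A direction for the gene as a whole is therefore not given here.

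**Figure D4:**
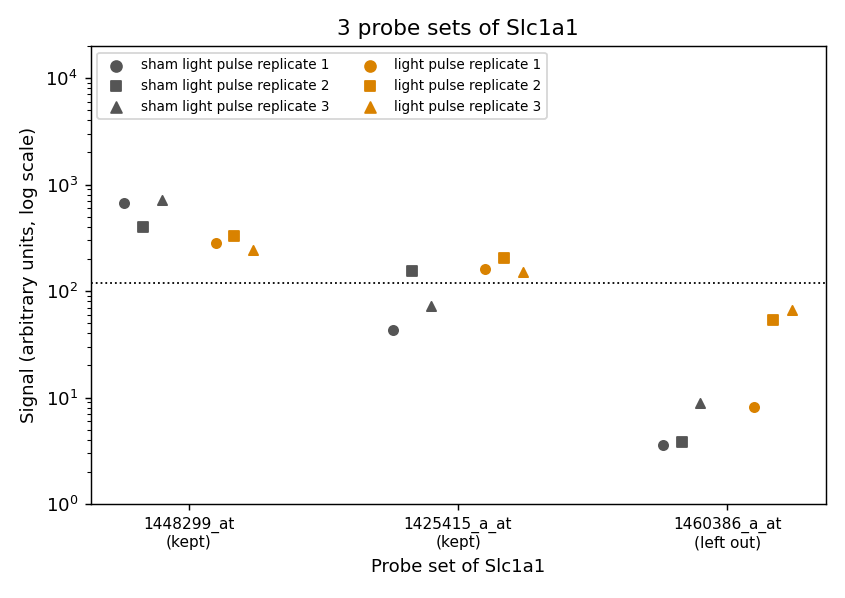
Signals (arbitrary units, log axis) of the 3 probe sets of Slc1a1, with 1 point per array (3 per group) and a dotted line at 118.2, the lowest rank 3 signal that passed. At the probe set of highest signal the light pulse points lie below the sham points, and at the second kept probe set their mean is higher, with log2 fold changes of -1.02 and 1.13.

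Slc1a3 (GLAST), a glutamate transporter of astrocytes, had signals of 1329, 2138 and 1443 in sham pools and of 1232, 1749 and 1191 in light pulse pools. The groups overlapped, with a log2 fold change of -0.23 (SE 0.29) and an interval from -0.85 to 0.40. It was -0.12 without light pulse replicate 3, -0.016 without sham replicate 2, and -0.40 with the groups apart without light pulse replicate 2. Left-out probe sets of Slc1a3 had overlapping groups. Their means in sham and light pulse pools were 105.9 and 99.2 at one, and 36.6 and 103.5 at the other. Slc1a2 (GLT-1), the other astrocyte transporter, stayed between 33.0 and 107.9 at its 1 probe set and was left out, as was Slc1a6 (EAAT4), known from Purkinje cells, at 5.1 to 193.3. Of 9 other astrocyte markers 8 were kept, and their summed signal over all 9 ran from 37547 to 42820 in sham pools and from 39147 to 42529 in light pulse pools. Gja1 and Aldoc make up most of that sum. Of the 8 kept, 5 had a log2 fold change above 0 and 3 below, from 0.98 for Gfap to -0.48 for Gjb6 and -0.54 for Aqp4.

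Slc1a4 (ASCT1) belongs to the same family and carries alanine, serine and cysteine. It had signals of 2317, 2127 and 1762 in sham pools and of 2759.8, 2961 and 2651 in light pulse pools, each light pulse array above each sham array. The log2 fold change was 0.44 (SE 0.24, limma adjusted p = 0.960), with an interval from -0.08 to 0.96, and it was 0.48 without light pulse replicate 3. Other probe sets of Slc1a4 were left out, with overlapping groups. Their means in sham and light pulse pools were 68.0 and 67.0 at one, and 54.4 and 30.2 at the other. Slc1a5 (ASCT2), its close relative, was left out, with a signal of 137.0 on light pulse replicate 3 and from 8.0 to 12.1 on the other arrays.

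The arrays set how small a difference could be seen. For 8 of the 12 genes the 95% confidence interval lay within a 2-fold change either way, as it did for 45.3% of all genes with a kept probe set. For the other 4, Grin2c, Grik1, Dlg4 and Slc1a1, the interval still held changes of 2-fold or more. These counts are of the probe set that stands for each gene. The other kept probe sets of Gria1 (-2.01 to 0.58) and Gria2 (-1.51 to 0.37) also held such changes. The median SD of log2 signals within groups was 0.34 over the 12 genes and 0.41 over all genes with a kept probe set.

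Light pulse replicate 3 held the lowest of the 6 signals for 4 of the 12 genes (Gria2, Grik1, Slc1a1 and Slc1a3), and sham replicate 3 for another 4 (Grin2c, Dlg1, Dlg5 and Slc1a4). Over all kept probe sets these arrays held the lowest signal for 18.3% and 14.7%. The largest share, 21.6%, was that of sham replicate 2, which held it for 1 of the 12 genes. Endothelial markers, summed over 6 genes of which 2 were kept, were also lower on the light pulse arrays, at 912 to 1294 against 1318.5 to 1873. Of the 2 kept, Flt1 had a log2 fold change of -1.55 and Cldn5, whose groups overlapped, of -0.47. The filter left out Pecam1 (3.3 to 22.2), Kdr (4.2 to 79.0), Cdh5 (2.2 to 150.8) and Tek (54.8 to 176.9). Mean signals of Pecam1 (6.8 in sham and 12.4 in light pulse pools) and Tek (74.7 and 97.3) were higher in light pulse pools. Those of Kdr (42.6 and 23.7) and Cdh5 (79.5 and 62.7) were lower. The sums of the other marker lists overlapped between the groups, though single markers in them differed. Of 8 SCN markers 5 had a log2 fold change above 0 and 3 below, with Vip (0.43) and Grp (0.17) higher on every light pulse array. Of 3 kept markers of neighbouring hypothalamic neurons 1 was above 0 and 2 below, with Pomc at -1.09 and overlapping groups. The part of endothelial or other cells in the lower signals of Gria2, Grik1 and Slc1a1 was not tested.

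**Figure D5:**
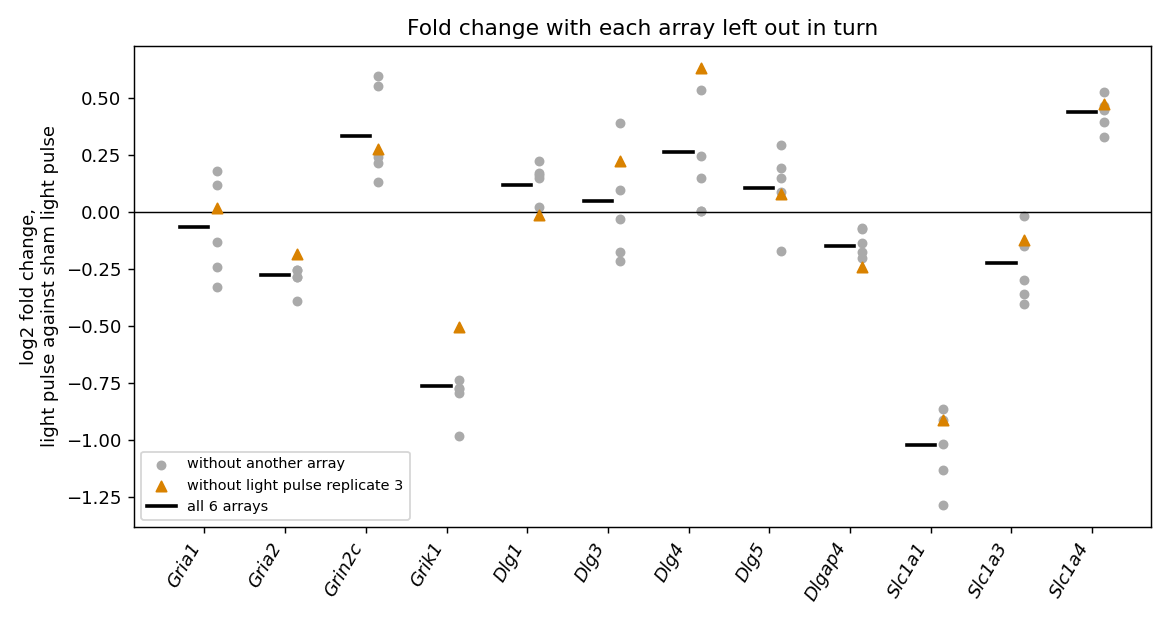
Log2 fold changes (light pulse against sham) of the 12 kept genes with all 6 arrays (black bars), without light pulse replicate 3 (triangles) and without each other array (grey points). Slc1a1, Grik1, Gria2, Dlgap4 and Slc1a3 stay below 0 and Slc1a4, Grin2c and Dlg4 above 0 at every point, while Gria1, Dlg1, Dlg3 and Dlg5 cross 0.

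Other genes of glutamate signalling were not called either. Of 60 genes in 4 lists chosen by known role, 44 were measured, 30 were kept and 0 were called by limma or by Cyber-T, with 2 at an unadjusted p under 0.05 from limma (Glud1 and Pick1), as had 4.14% of all genes with a kept probe set. The median log2 fold change of the 30 was -0.07, with 12 above 0 and 18 below. Of AMPA and kainate receptor auxiliary subunits 3 of 9 measured were kept, led by Cacng5, a relative of stargazin, at -0.14 (SE 0.32), and Neto1, a partner of kainate receptors, at -0.31 (SE 0.36). Of other postsynaptic scaffold and trafficking proteins 12 of 16 were kept. Dynll1 and Dynll2, light chains of dynein, had the highest signals of these, at 0.10 (SE 0.18) and 0.09 (SE 0.26). Pick1, which binds Gria2 and is named after its value was seen, had signals of 158, 250.4 and 474 in sham pools and of 547, 581 and 441 in light pulse pools, with a log2 fold change of 0.97 (unadjusted p = 0.0298, adjusted p = 0.960 from limma).

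In glutamate and glutamine metabolism 8 of 9 measured genes were kept, and 2 of them did not overlap between the groups, the only ones of the 30 genes, where 10.1% of all genes with a kept probe set did not overlap. Glud1, glutamate dehydrogenase, had signals of 4296, 5448 and 4848 in sham pools and of 3395, 3141 and 2808 in light pulse pools. All light pulse arrays were lower, and the log2 fold change of -0.64 (SE 0.23) was not called by limma (adjusted p = 0.960). Slc38a1, a glutamine transporter of neurons, had 184, 131 and 198 against 318, 293 and 235, all higher, with 0.73 (SE 0.39, limma adjusted p = 0.960). Glul, the glutamine synthetase of astrocytes, had a log2 fold change of 0.06 (SE 0.20). Among calcium and kinase partners of NMDA receptors 7 of 10 were kept, with Prkcb, a protein kinase C, at -0.29 (SE 0.24) and Ppp3ca, a calcineurin subunit, at -0.08 (SE 0.30).

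The study asked whether light-induced genes share the cAMP response element (CRE), the site that the transcription factor CREB binds. It searched a longer stretch before the start codon, with site matrices and a requirement of conservation between mammals. The counts of exact letters below therefore cannot be set against those of the study. RefSeq promoter windows (GRCm38.p6, 250 bases before to 50 after the gene start) were found for 21 of the 29 genes, 32 windows in all, since a gene can have several starts. The full CRE, TGACGTCA, which reads the same on both strands, was in 0 of the 32 windows and in 1.79% of all 32851 windows. Its half-site, TGACG or, read from the opposite strand, CGTCA, both of which lie in the full site, was in 8 of the 32 and in 20.8% of all. Counted by gene, 8 of the 21 had it in a window, and 5 of the 10 kept genes with a window, against 23% of all genes, a count that grows with the windows a gene has. Of the 4 genes whose arrays did not overlap, Grik1 was not in the table, Slc1a1 and Gria2 had no match and Slc1a4 had a half-site. The half-sites of kept genes that lie before a start are shown (Dlgap4 had one after its start) with a site of Fos and one of Dusp1, both called as higher in light pulse pools, so that the letters can be compared. Capitals mark the match, the sequence is on the strand of the gene, and the coordinates are those of the bases shown.
Slc1a4 (minus strand, chr11:20332831-20332859): ggacctgggaaaCGTCAgggaggtgggga
Slc1a3 (minus strand, chr15:8710808-8710832): aagaacaccctcTGACGtcccctga
Dlg3 (plus strand, chrX:100774405-100774433): gacgattaccgcCGTCAgggggagtgcca
Dlg4 (plus strand, chr11:70023894-70023922): tctctcccatcaTGACGctctcccgtact
Fos (plus strand, chr12:85473812-85473840): agttccgcccagTGACGtaggaagtccat
Dusp1 (minus strand, chr17:26508597-26508626): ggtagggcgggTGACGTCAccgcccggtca
The Dusp1 window holds the full site and the others the half-site. A match is a run of letters and was not tested as a binding site, and a window without one says only that these letters are not in it.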

How the data were processed

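RNA from laser-captured SCN (1 ng per pool, 2 rounds of linear amplification) was hybridized to Affymetrix 430A 2.0 arrays, 3 per group. Amplification from so little RNA adds spread between arrays and favours the 3′ ends of transcripts. The deposited values are signal intensities, 1 per probe set and array, which the authors computed with MAS5 (the submitters' processing notes give no version). Trimmed means (2% off each end) ran from 492.3 to 495.6. The 6 columns were mapped by sample name. Gene names came from the platform annotation: 20380 probe sets had 1 symbol, 691 several and 1555 none.

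The log2 of each intensity, without an offset, entered linear models (lmFit, eBayes with trend) of limma 3.58.1, run in R 4.3.3. Tests were two-sided, and p-values were adjusted by Benjamini-Hochberg over the 10340 kept probe sets, with a threshold of 0.05. The filter keeps as many probe sets as the study's present calls did, by rank 3 signal. A gene is represented by its kept probe set of highest mean log2 signal. Values per array are given for genes whose arrays do not overlap, the 2 of highest signal in each role, Grin2a, Grin2b and the 3 largest differences. The members and lists were chosen with earlier results of these data known. Cyber-T, an alternative, took its prior SD over 101 neighbours in signal, with a weight of 10. Other alternatives were the filter (none, or stricter), quantile and common 75th percentile normalization, an offset, no trend, a replicate block, probe sets of shared targets left out, all probe sets of a gene averaged, and each array left out. The fits were tested on simulated data, drawn with the mean and spread of each kept probe set and with known increases. In 1 simulation, increases of 2-, 4-, 8- and 16-fold were given to 50 probe sets each. With so many changed, the adjusted threshold is easier to pass than in the arrays, where 7 probe sets were called. The recovered shares may thus be too high for these data. At an adjusted p under 0.05 limma recovered 20% of true 2-fold and 64% of true 4-fold changes, with 11 false calls in the whole simulation. Cyber-T recovered 40% and 84%, with 52 false calls. A true 2-fold change would thus often go uncalled here. Array signals give no counts, and the number of arrays limits the precision.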

Additional observations from a re-analysis of the deposited data

Results flagged for a closer look

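Signals of 3 NMDA receptor subunit probe sets that the filter left out of the comparison were higher on every light pulse array than on every sham array. The lowest light pulse signal was 39.4 for Grin2a, against at most 12.8 in sham pools, 50 for one Grin2b probe set, against at most 37.6, and 85.9 for Grin3b, against at most 71.7. Only Grin3b reached the lowest rank 3 signal kept, on 1 array. The differences were not tested in the comparison of kept probe sets. They were seen in 3 of the 27 member probe sets left out, where 7.58% of all probe sets left out were higher in this way. The other Grin2b probe set and that of Grin2d had overlapping groups.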

How the results depend on the processing

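Each result was computed again under 16 alternatives, 6 of which left out 1 array each. Member probe sets called by limma or Cyber-T numbered 0 in all 16. Over all kept probe sets the calls were 7, and 4 without the intensity trend and 5 with Cyber-T. Leaving out 1 array gave 5 to 8. Member genes whose arrays do not overlap numbered 4, 1 without probe sets of shared targets (which removes those of Gria2, Grik1 and Slc1a4), 2 with all probe sets of a gene averaged, 3 with quantile normalization, a common 75th percentile or the stricter filter (of 7 genes kept there), 6 of 29 with no filter, and 4 to 5 with 1 array left out. Arrays that do not overlap stay apart when 1 is left out, so that the count could not fall below 4 there. Fewer arrays also separate more easily. The share over all genes is not given under the alternatives, so that these counts have nothing to be read against. With 1 array left out the median log2 fold change of members ran from -0.21 to 0.05. Of 185 pairs of a kept gene and an alternative, 175 kept their direction and stayed uncalled and 10 changed sign. With quantile normalization Dlg3 was at -0.015, and with all its probe sets averaged Slc1a1 was at 0.053. With 1 array left out, Dlg3 ran from -0.22 to 0.39, Dlg5 from -0.17 to 0.29, Gria1 from -0.33 to 0.18 and Dlg1 from -0.015 to 0.23; the cause was not tested. The lowest adjusted p of a kept gene under any alternative was 0.889, for Slc1a1. The replicate numbers are shared between the groups, but the deviations of same-numbered arrays correlated at 0.10, -0.19 and -0.13, and not every array correlated best with its own number, so that they were not taken as pairs. With the replicate number as a block, limma called 6 probe sets in all and 0 members. The block leaves the signals and their overlap as they were, and Slc1a1 had a log2 fold change of -1.02.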
